A study of Mus musculus with 6 samples.

Results

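The genes described here encode the proteasome, the protease complex that degrades ubiquitin-tagged proteins, together with its activators, its inhibitor and its assembly factors. They were chosen by name: rows of the deposited tables whose symbol begins with Psm, one of the letters a to g and a digit, that were listed once and marked OK in all 6 libraries. This gave 49 genes of 23699 rows. Psmb8, Psmb9, Psmb10, Psme1 and Psme2, the 5 inducible genes, were compared with the other 44. One gene taken in by its name, Psmc3ip, encodes a meiotic recombination factor and not a proteasome subunit.

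Poly-A mRNA was sequenced from peritoneal macrophages, the phagocytes of the abdominal cavity, of C57Bl/6 mice. They were either wild type (WT) or, under the label miR-221/222 -/Y (KO), lacked a pair of microRNA genes. Cells of each genotype were left naive, were exposed for 4 h to lipopolysaccharide at 1000 ng/ml (LPS, the bacterial glycolipid sensed by Toll-like receptors), or were tolerized. Tolerization was a first exposure at 10 ng/ml over 15 h, a wash, 2 h of rest and a second exposure at 1000 ng/ml over 4 h, so tolerized and naive cells differ in both exposures and in time. There was 1 library in each of the 6 groups, whereas the design text speaks of triplicates. Whether animals were pooled, or whether libraries came from separate animals, is not given in the sources used here. The p-values therefore measure only the spread between these samples, which may be technical. With 1 library per group the fit adds genotype and condition, so a response that differs between genotypes counts as part of that spread. The genotype could not be checked, because mature microRNAs carry no poly-A tail.

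The core particle of the proteasome, called 20S, is a barrel with outer rings of alpha subunits and inner rings of beta subunits, and Psmb5, Psmb6 and Psmb7 encode its standard catalytic subunits. Interferons and other inflammatory signals induce Psmb8, Psmb9 and Psmb10, whose products replace those of Psmb5, Psmb6 and Psmb7 in newly built particles and form the immunoproteasome, known for producing peptides for MHC class I. Psme1 and Psme2 encode the PA28 activator, which binds the ends of the core in place of the 19S regulatory particle that unfolds ubiquitinated proteins.

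Values are FPKM, a fragment count divided by transcript length and library size, so they can be compared between genes. The bounds given with an FPKM are those of the authors' tables and cover counting error only. Their half-width was a median of 3.81% to 5.28% of the value over these genes at 10 FPKM or more. The 49 genes held 0.495% to 0.690% of all FPKM. Markers of macrophages, 10 of 10 present in every library, had sums of 48985 FPKM for naive, 23550 for LPS and 17613 for tolerized WT libraries, and of 39452, 18823 and 11672 for those of KO. Most of each sum was Lyz2, at 45134.5, 19661 and 13872 FPKM in WT and at 35949, 16240 and 8538 in KO. All 10 B cell markers were also present, with sums of 797.5 in WT naive, 329.8 in WT LPS and 510.3 in WT tolerized cells, and of 595.7, 285.1 and 635.5 in the KO libraries of the same conditions. Markers of T and NK cells summed to 13.6 to 42.1 FPKM, of mast cells to 102.9 to 192.1, and of dendritic cells to 2.45 to 4.07. Neutrophil markers summed to 67.5, 111.4 and 200.7 FPKM in WT and to 172.9, 149.5 and 348.5 in KO, nearly all from S100a8, and S100a9 and Ngp were listed at 0 in every library. In bulk RNA, fewer cells of a type and less RNA per cell cannot be told apart.

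FPKM of most genes was lower after LPS. The median of all 10137 tested genes lay at -0.76 on the log2 scale for LPS against naive, at 0.51 for tolerized against LPS and at -0.22 for tolerized against naive. The 50 most abundant rows held 35.2% and 38.8% of FPKM in naive WT and KO cells and 42.7% to 46.7% in the other libraries. Results are therefore also given after rescaling the libraries to a common median ratio over genes, called a common median below. This moves these medians to -0.00053, -0.0075 and 0.012, and the part of these shifts in each result was not tested. FPKM levels and the order of libraries by FPKM are as deposited unless rescaling is named.

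Levels ran over a wide range among the tested members. By its median over the 6 libraries Psma6, an alpha subunit, was the most abundant at 250.5 FPKM, followed by Psmb8 at 250.1, Psmb4 at 206.2 and Psme1 at 181.0. The ranges of Psma6, at 139.7 to 364.0, and Psmb8, at 93.9 to 320.7, overlapped nearly throughout. Assembly chaperones were lower, with medians from 7.88 FPKM for Psmd9 to 66.1 for Psmd10. As deposited, WT naive was the lowest library for 27 of the 46 tested members, KO LPS for 16 and WT LPS for 3. WT tolerized was the highest for 19. These counts were not made over all genes. After rescaling, LPS was above naive for 46 of 46 members in WT, where 5080 of 10027 genes were. In KO it was so for 42 of 46, where 4969 of 9938 genes were. Rescaled, WT tolerized was above WT LPS for 9 of 47 members reaching 2 FPKM in either library, and for 4536 of 9603 genes.

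Of the 5 inducible genes, 3 encode catalytic beta subunits, and the gene order of the MHC region places 2 of them beside the peptide transporter. In the deposited mm9 coordinates Psmb9 spans chr17:34319044-34324275, 225 bases from Tap1, and Psmb8 spans chr17:34335140-34338399, 969 bases beyond Tap1 and 3024 bases before Tap2. Psme1 (chr14:56197331-56200364) and Psme2 lie 5912 bases apart. Promoters of 250 bases before to 50 after the start were matched for 41 of the 49 genes in RefSeq (GRCm38.p6). Psmd3, Psmb7, Psma8, Psmb1, Psmb2, Psmc3, Psmd7 and Psmg2 were not matched. Of the 5 inducible genes, Psmb8, Psmb9 and Psme1 are printed here, because Psmb8 and Psme1 held interferon-type motifs and Psmb9 had an LPS difference that passed the test under every alternative tried. Psmb8 is at chr17:34197945-34198244 on the plus strand, Psmb9 at chr17:34187281-34187580 on the minus strand and Psme1 at chr14:55578244-55578543 on the plus strand, each read along its gene, with capitals marking every match to 6 motifs.
Psmb8: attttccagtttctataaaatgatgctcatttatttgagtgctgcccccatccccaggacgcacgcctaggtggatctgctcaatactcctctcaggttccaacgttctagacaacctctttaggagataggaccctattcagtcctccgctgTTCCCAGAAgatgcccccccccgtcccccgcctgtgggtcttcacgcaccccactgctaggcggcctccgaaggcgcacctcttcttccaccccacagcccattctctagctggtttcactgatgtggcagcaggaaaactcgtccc
Psmb9: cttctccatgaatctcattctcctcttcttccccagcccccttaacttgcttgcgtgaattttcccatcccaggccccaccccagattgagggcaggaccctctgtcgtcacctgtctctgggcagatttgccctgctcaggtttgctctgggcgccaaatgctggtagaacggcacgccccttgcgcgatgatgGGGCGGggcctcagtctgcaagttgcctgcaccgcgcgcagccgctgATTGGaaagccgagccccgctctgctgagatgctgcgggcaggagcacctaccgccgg
Psme1: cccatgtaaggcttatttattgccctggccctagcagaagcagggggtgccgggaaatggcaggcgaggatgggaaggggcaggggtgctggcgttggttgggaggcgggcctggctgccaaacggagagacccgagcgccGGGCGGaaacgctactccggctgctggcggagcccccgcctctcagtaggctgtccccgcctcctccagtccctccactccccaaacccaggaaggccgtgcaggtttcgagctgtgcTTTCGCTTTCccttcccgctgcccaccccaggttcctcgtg

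Both strands were searched for 6 motifs, and a match is a description of letters and not a bound site. The GAS motif TTCNNNGAA, an element of interferon-responsive promoters, was matched in Psmb8 at -97 to -89 from the start, in 2 of the 36 other members with a promoter, and in 8.30% of all 32851 promoters. An ISRE-like core, a pair of GAAA blocks with any 2 bases between them, the type bound by interferon regulatory factors, was matched in Psme1 at 10 to 19 after the start, in 4 of 36 others and in 3.44% of all. Psmb9 held a CCAAT box (CCAAT), which 14 of 36 others and 37.4% of all promoters held. The GC box GGGCGG was matched in 3 of 5 inducible and 20 of 36 other members, against 35.7% of all. The core of the antioxidant response element, TGACNNNGC, was matched in 0 of 5 inducible and 6 of 36 other members, Psmb5 and Psmb6 among them, against 12.4% of all. The NF-kB consensus was matched in 0 of 5 and 1 of 36, against 4.51% of all.

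With LPS 4 of the 5 inducible genes and 2 of the 41 other tested members rose. On the deposited scale, 6 of 46 tested members rose and 3 fell in LPS against naive cells, where 8.74% of all tested genes rose and 54.4% fell (limma on log2(FPKM + 1) with genotype as a covariate, Benjamini-Hochberg adjusted p below 0.05, genes reaching 2 FPKM in 2 or more libraries). The members that rose were Psmb8, Psmb9, Psmb10 and Psme2 of the inducible genes, with Psma5 and Psmd11. Those that fell were Psmg1, Psmd9 and Psmg3, all assembly chaperones. The median log2 difference was 1.02 over the 5 inducible genes and 0.01 over the 41 others tested, beside -0.76 over all genes. After rescaling, all 5 inducible and 23 of the 41 others rose and 0 fell, against 22.6% and 24.2% of all genes, with a median of 0.85 over the 41. Without the WT naive or the WT LPS library 1 member rose, and without the KO naive library 11 did. The number that fell was 0 without KO naive or KO LPS.

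Psmb9, whose product replaces that of Psmb6, stood at 46.1 FPKM in WT naive, 114.7 in WT LPS and 72.5 in WT tolerized cells, and at 64.2, 128.7 and 110.5 in the KO libraries. Both LPS libraries were above all others, with no overlap between naive and LPS. Its difference was 1.15 ± 0.23 (SE) on the log2 scale (limma, adjusted p = 0.0061). It passed the threshold under all 14 alternatives tried, with log2 differences of 0.96 to 1.99 and adjusted p of 0.0015 to 0.045.

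Psmb8, whose product replaces that of Psmb5 and has chymotrypsin-like activity, stood at 93.9 FPKM in WT naive, 256.7 in WT LPS and 243.6 in WT tolerized cells. Its KO values were 183.6, 278.1 and 320.7 FPKM in the same order of conditions, which holds for every set of 3 values given here. Both naive libraries were below the other 4. The LPS difference was 1.02 ± 0.30 (limma, adjusted p = 0.025). Psmb10, the trypsin-like counterpart of Psmb7, was at 60.0, 127.1 and 91.3 FPKM in WT and 99.8, 147.8 and 122.1 in KO, with both LPS libraries highest, and rose by 0.82 ± 0.24 (limma, adjusted p = 0.026). Over 14 alternatives the LPS difference ranged from 0.67 to 1.87 for Psmb8 and from 0.61 to 1.66 for Psmb10. Neither passed in all of them.

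The PA28 genes differed in level. Psme1, the alpha subunit, was at 96.9, 208.8 and 162.6 FPKM in WT and 149.9, 199.3 and 249.7 in KO. The KO tolerized library was highest, and the naive libraries were below the rest. The LPS difference was 0.75 ± 0.29 and did not pass as deposited (limma, adjusted p = 0.058). After rescaling it was 1.60 and passed (limma, adjusted p = 0.0049). Psme2, the beta subunit, was at 2.35, 16.3 and 8.51 FPKM in WT and 6.92, 9.37 and 7.76 in KO, so its 2 naive libraries were the lowest. It rose by 1.38 ± 0.45 (limma, adjusted p = 0.035), with 0.54 to 2.21 over 13 alternatives, and it did not pass in all of them. Psme2 shares 99.4% identity over aligned transcript with Psme2b in the GENCODE M21 annotation, which has no row in the tables, so its level is uncertain.

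**Figure D1:**
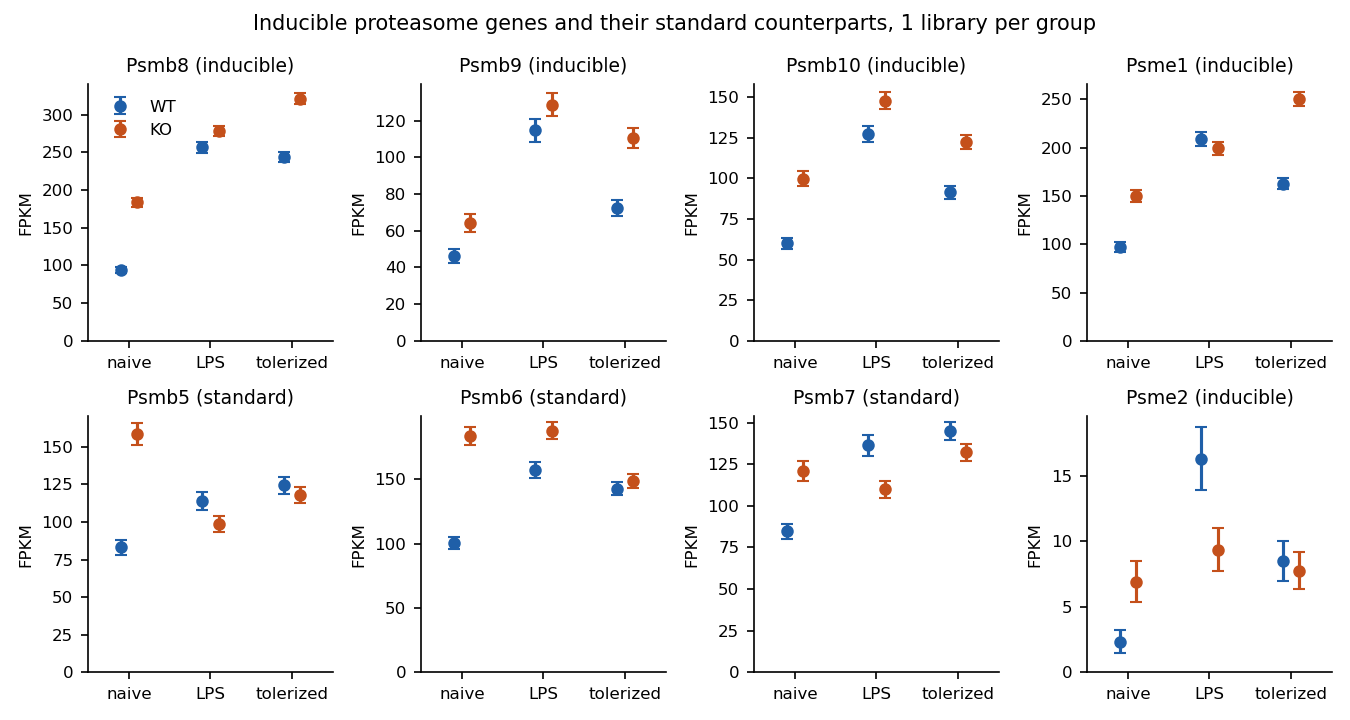
FPKM (linear axis from 0) of the 5 inducible genes and of Psmb5, Psmb6 and Psmb7 in naive, LPS and tolerized cells of each genotype, 1 library per point, with the deposited bounds as bars. Naive values of each inducible gene lie below the LPS value of the same genotype, whereas on this deposited scale Psmb5 and Psmb7 were lower with LPS than in naive cells in KO only.

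The ratio of an inducible to its standard subunit shows how the pool of catalytic transcripts was composed. Psmb8 FPKM over Psmb5 FPKM was 1.13 (bounds 1.05 to 1.21, combining the deposited bounds of both genes) in WT naive and 1.16 (1.09 to 1.22) in KO naive cells. With LPS it was 2.25 (2.12 to 2.39) and 2.81 (2.65 to 2.98), and after tolerization 1.96 (1.85 to 2.06) and 2.71 (2.58 to 2.85). Each tolerized ratio lay between the naive and LPS ratios of its genotype, and in KO the bounds of the tolerized and LPS ratios overlapped.

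For Psmb9 over Psmb6 the WT tolerized ratio also lay between those of naive and LPS cells, but the KO one did not. In WT it was 0.459, 0.730 and 0.508, whereas the KO ratios were 0.350, 0.686 and 0.745. The WT tolerized ratio was near the naive one, while the KO tolerized ratio was above the KO LPS one, with overlapping bounds of 0.699 to 0.790 against 0.645 to 0.727. For Psmb10 over Psmb7 the WT ratios were 0.708, 0.932 and 0.631, and the KO ratios were 0.825, 1.34 and 0.924. In all 3 ratios each LPS library was above the naive library of its genotype, and no test over samples was made of the ratios.

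**Figure D2:**
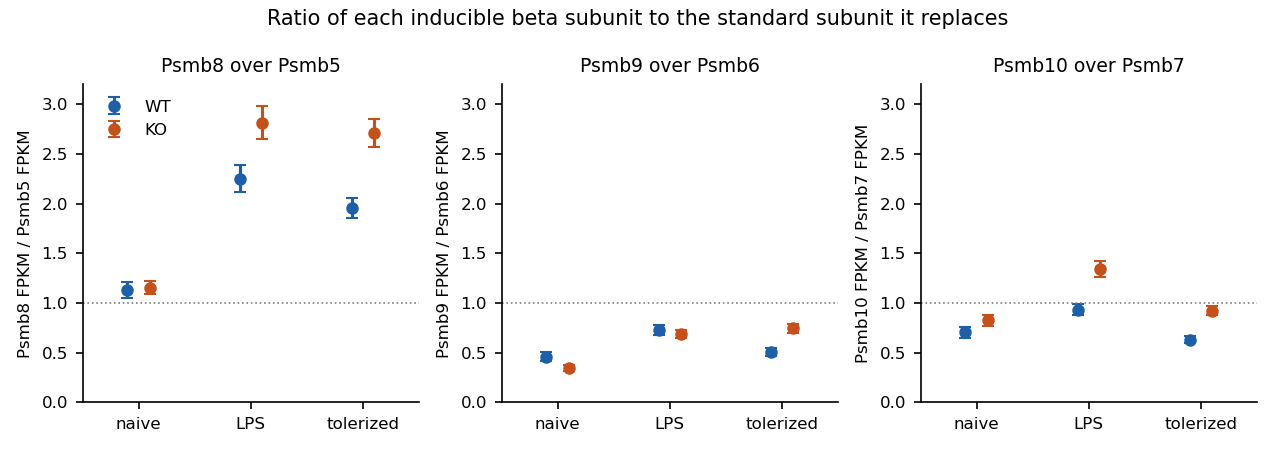
Ratio of FPKM of each inducible beta subunit to that of the standard subunit it replaces, per library, with combined deposited bounds. The dotted line marks a ratio of 1, and Psmb8 over Psmb5 is above 1 in all 6 libraries.

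Set against the other 41 tested members as a mean log2 level, the inducible genes lay -0.35 below them in WT naive, 0.76 above in WT LPS and 0.05 above in WT tolerized cells. In KO the same difference was 0.05, 0.99 and 0.57. From naive to LPS it moved by 1.11 in WT and 0.94 in KO, and from LPS to tolerized by -0.70 and -0.42. From naive to tolerized it moved by 0.41 in WT and 0.52 in KO. With medians in place of means the WT tolerized value was below that of WT naive, by -0.22. The median difference was 0.23 in WT naive, 0.78 in WT LPS and 0.00092 in WT tolerized cells, so the naive to LPS move in WT was 0.55. Against the 14 other members of the 20S core the mean difference was -1.01, -0.11 and -0.68 in the WT libraries, below 0 in each. In KO it was -0.67, 0.13 and -0.15. The inducible mean includes Psme2, at 2.35 FPKM in WT naive cells and of uncertain level, and means without Psme2 were not computed. Of the marker sums given above, those of B cells and macrophages were lower in the LPS libraries than in the naive libraries. The macrophage sums, mostly Lyz2, were lower again after tolerization. Marker by marker, 1 of 10 rose and 4 fell with LPS, beside 8.74% and 54.4% of all genes (limma, adjusted p below 0.05). In tolerized against LPS cells 4 of the 10 rose and 1 fell, beside 36.8% and 4.32%. Rescaled, 1 rose and 2 fell in that contrast, beside 8.88% and 9.28%. Neutrophil sums, nearly all from S100a8, were lowest in WT naive and highest in KO tolerized cells, as were Psmb8 and Psme1 on the deposited scale. Rescaled, KO tolerized was below KO LPS for Psmb8 (-0.45) and Psme1 (-0.33). Other neutrophil markers had another order: Camp was highest in WT tolerized cells (8.85 FPKM), and Retnlg was highest in KO naive (2.46) and lowest in KO tolerized cells (0.203). The part of these cells in the result was not tested.

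The alpha ring of the core spread widely. Psma5 was at 20.8, 50.7 and 43.0 FPKM in WT and at 28.5, 39.5 and 39.3 in KO, with both naive libraries lowest. It rose with LPS by 0.85 ± 0.26 (limma, adjusted p = 0.026). Psma1, at the other end of the alpha group, was at 121.5 and 99.3 FPKM in WT naive and LPS and at 140.9 and 82.3 in KO, a difference of -0.53 ± 0.25 (limma, adjusted p = 0.11). Rescaled, its difference was 0.32 (limma, adjusted p = 0.29). Psma6 ranged from 139.7 FPKM in WT naive to 364.0 in WT tolerized cells, and its KO LPS value of 182.7 was close to the KO naive value of 178.8. Psma2 (89.9 to 167.9 FPKM) and Psma3 (16.2 to 36.5) were highest in WT LPS, and Psma4 (67.0 to 106.6) and Psma7 (133.3 to 222.9) in WT tolerized cells. Psma3 has 4 near-identical copies in the annotation. Psma8, the testis-specific alpha subunit, was at 0.175 to 0.928 FPKM, and Psmc3ip was at 0.422 to 2.41. Neither was tested, because of the filter on low values.

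Among standard beta subunits none passed the test with LPS as deposited. After rescaling Psmb2, Psmb4, Psmb6 and Psmb7 rose (limma, adjusted p = 0.013 to 0.017), where 22.6% of all genes did. Psmb5, the chymotrypsin-like subunit, was at 83.2 and 113.9 FPKM in WT naive and LPS but 158.7 and 98.8 in KO, so the KO naive library was the highest of all 6. Psmb6, the caspase-like subunit, was at 100.3, 157.3 and 142.7 FPKM in WT and at 183.2, 187.6 and 148.4 in KO. Psmb7 was at 84.8, 136.3 and 144.8 in WT and at 120.9, 110.0 and 132.1 in KO. Psmb1, a structural subunit, had the lowest LPS difference of the group, -0.44 ± 0.24 (limma, adjusted p = 0.15), and rescaled it was 0.41 (limma, adjusted p = 0.17). Psmb2 (125.4 to 177.3 FPKM) and Psmb4 (157.6 to 249.6) were highest in WT LPS, and Psmb3 (27.4 to 47.5) was highest in KO naive and lowest in KO LPS cells. Psmb11, the thymus-specific beta subunit, was listed at 0 in all 6 libraries. Psmb5 and Psma5 have near-identical copies in the annotation, with 98.9% and 98.6% identity, and these copies have no rows in the tables.

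The 6 ATPases of the 19S base lay close together. As deposited their LPS differences ran from -0.41 for Psmc3 to 0.12 for Psmc5, and 0 passed the test, also at an unadjusted p below 0.05. After rescaling 4 of the 6 rose, Psmc2, Psmc4, Psmc5 and Psmc6 (limma, adjusted p = 0.022 to 0.035), where 22.6% of all genes did. Psmc5 was at 60.0 and 92.6 FPKM in WT naive and LPS cells and at 84.3 and 64.8 in KO. The order of naive and LPS was thus opposite in the 2 genotypes as deposited, but not after rescaling, where LPS minus naive was 1.41 in WT and 0.52 in KO on the log2 scale. As deposited, WT tolerized was the highest library for each of the 6, with 75.8 FPKM for Psmc1, 117.2 for Psmc2, 97.9 for Psmc3, 99.96 for Psmc4, 120.3 for Psmc5 and 129.1 for Psmc6. Rescaled, it was below WT LPS for Psmc2 (-0.25), Psmc4 (-0.32), Psmc5 (-0.17) and Psmc6 (-0.13). For Psmc1 (0.14) and Psmc3 (0.03) it stayed above WT LPS.

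After rescaling 9 of the 11 non-ATPase subunits rose with LPS, where 22.6% of all genes did, but as deposited only Psmd11 rose. It was at 17.3, 45.7 and 44.7 FPKM in WT and at 22.3, 28.1 and 47.9 in KO, with both naive libraries lowest, and its difference was 0.84 ± 0.29 (limma, adjusted p = 0.043). Psmd14, the deubiquitinase of the lid, was at 47.5 and 96.4 FPKM in WT naive and LPS and at 62.9 and 72.7 in KO, a difference of 0.61 ± 0.27 (limma, adjusted p = 0.092). Psmd13 had the lowest difference of the group, -0.46 ± 0.24 (limma, adjusted p = 0.14), and rescaled it was 0.37 (limma, adjusted p = 0.22). Psmd7, the partner of Psmd14 in the lid, was at 62.5 and 125.1 FPKM in WT naive and LPS and at 83.2 and 89.9 in KO. Psmd1 and Psmd2, the large scaffold subunits, ranged from 48.6 to 91.3 and from 46.6 to 80.3 FPKM, both highest in WT tolerized cells. The ubiquitin receptor Psmd4 ranged from 60.9 to 95.6 FPKM. There are 2 annotated genes near-identical to Psmd11 (up to 97.95% identity), so its value may include their reads.

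The remaining regulators did not pass as deposited. Psme3, the nuclear PA28 gamma, was at 45.99 and 73.6 FPKM in WT naive and LPS and at 52.9 and 58.3 in KO. After rescaling Psme3 rose by 1.24 (limma, adjusted p = 0.0058). Psme4, the activator PA200, was at 26.3, 19.5 and 28.4 FPKM in WT and at 26.2, 37.0 and 30.5 in KO, so LPS was lowest in WT and highest in KO. Rescaled, LPS was above naive in both, by 0.36 and 1.36 on the log2 scale. Psmf1, an inhibitor of the core, was at 11.6 and 8.25 FPKM in WT naive and LPS and at 12.2 and 8.37 in KO, with both LPS libraries lowest (-0.47 ± 0.19, limma, adjusted p = 0.064). Rescaled, its difference was 0.31 and did not pass (limma, adjusted p = 0.22).

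Of the 7 assembly chaperones 3 fell with LPS, a share below the 54.4% of all genes that fell. Psmg1, a chaperone of alpha ring assembly, was at 18.0 and 11.4 FPKM in WT naive and LPS and at 18.2 and 7.57 in KO, a difference of -0.89 ± 0.22 (limma, adjusted p = 0.013). Psmd9, a chaperone of base assembly, was at 8.16 and 5.52 FPKM in WT and at 10.6 and 5.22 in KO and fell by 0.69 ± 0.20 (limma, adjusted p = 0.024). Psmg3 was at 16.9 and 13.9 FPKM in WT and at 20.6 and 8.25 in KO, with a difference of -0.75 ± 0.27 (limma, adjusted p = 0.0496). Over the alternatives tried, differences ranged from -1.14 to -0.10 for Psmg1, -0.86 to 0.06 for Psmd9 and -1.14 to 0.05 for Psmg3. None of the 3 passed in all of them. Psmg2, the partner of Psmg1, ranged from 11.5 to 18.6 FPKM and Psmg4, the partner of Psmg3, from 20.9 to 35.5, both lowest in KO LPS, and neither passed. In each of the 3 genes that fell, both LPS libraries were below both naive libraries. After rescaling their differences were -0.10, 0.06 and 0.05, and the group median moved from -0.69 to 0.06, beside an all-gene median of -0.76 as deposited.

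**Figure D3:**
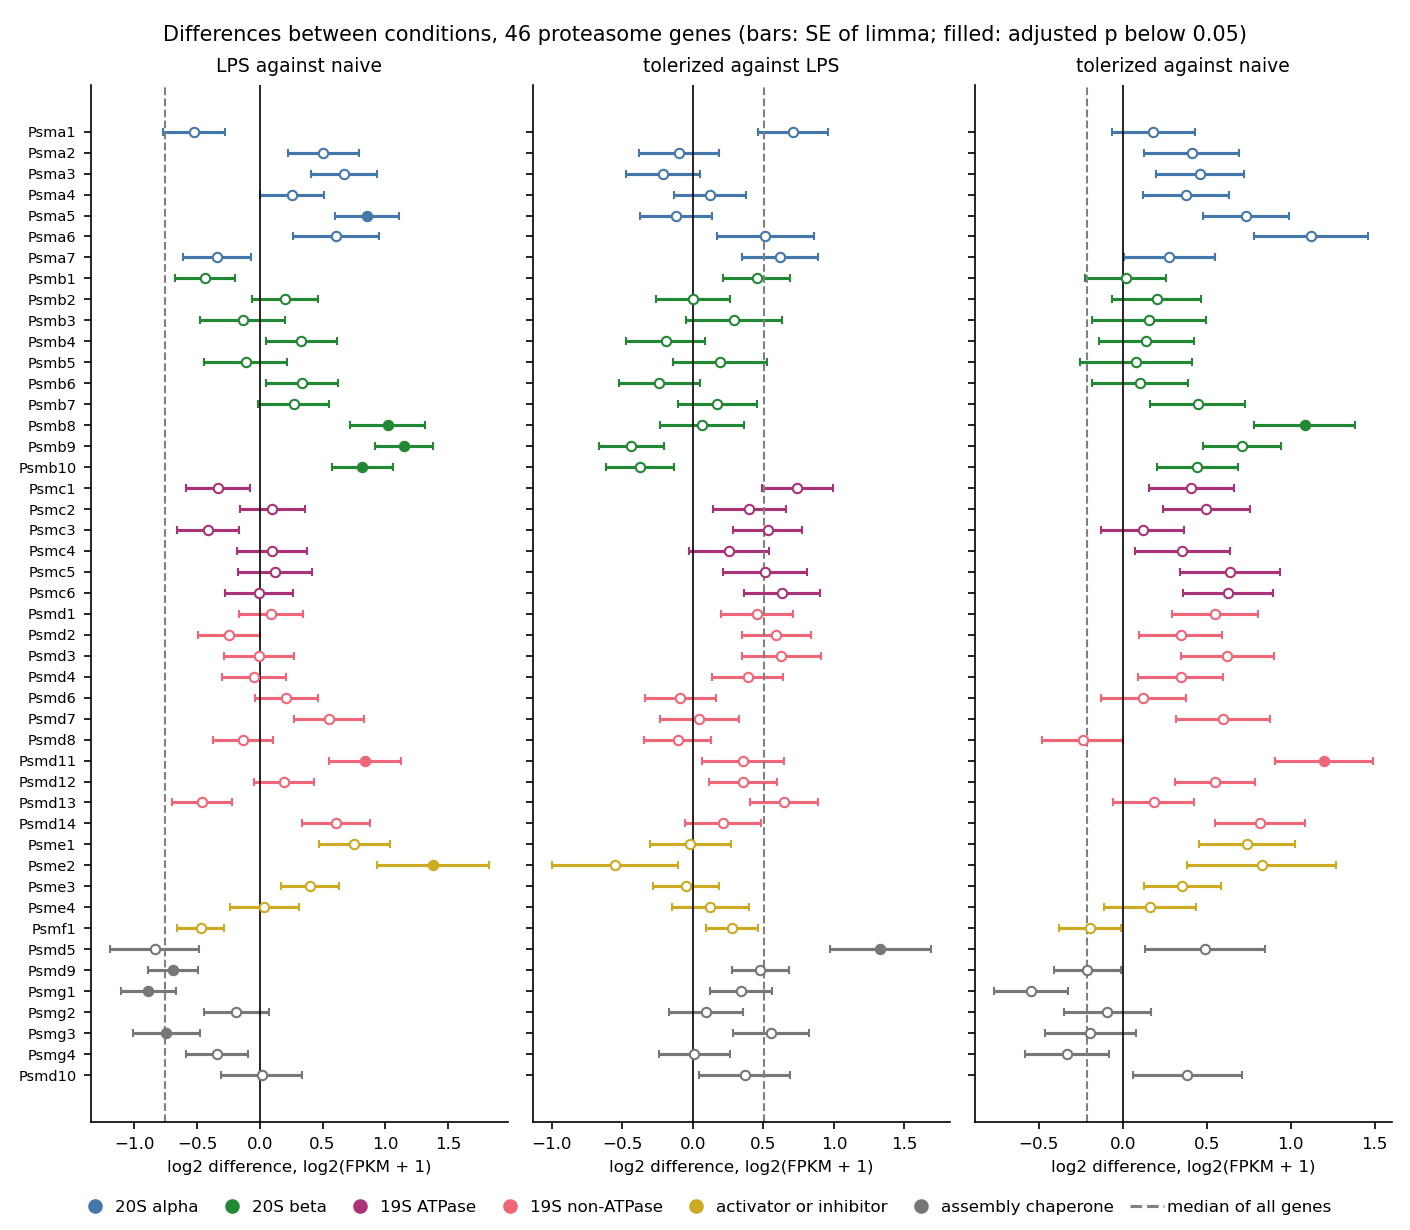
Log2 difference of 46 tested members in 3 contrasts of limma, on the log2(FPKM + 1) scale, with bars of 1 SE. Filled points passed an adjusted p of 0.05, and the dashed line is the median of all tested genes, at -0.76, 0.51 and -0.22.

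In tolerized against LPS cells 1 member rose and 0 fell (limma, adjusted p below 0.05), while 36.8% of all genes rose and 4.32% fell. At an unadjusted p below 0.05 there were 4 members. The one that rose was Psmd5, a chaperone of base assembly, at 24.8 FPKM in WT LPS and 46.7 in WT tolerized cells and at 12.7 and 45.8 in KO, with a difference of 1.33 ± 0.36 (limma, adjusted p = 0.029). After rescaling it differed by 0.75 and did not pass (limma, adjusted p = 0.16). Without the KO LPS or the KO tolerized library 0 members rose, and without WT naive or KO naive 5 did. The 5 inducible genes had a median of -0.37 and the 41 others of 0.34, beside 0.51 over all genes.

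Within the inducible genes the tolerized level was lower than the LPS level for Psmb9 (-0.44 ± 0.23, limma, adjusted p = 0.17) and Psmb10 (-0.37 ± 0.24, limma, adjusted p = 0.25), in both genotypes. The value for Psmb8 was 0.07 ± 0.30, for Psme1 -0.02 ± 0.29 and for Psme2 -0.55 ± 0.45, none of which passed. After rescaling, Psmb9 (-1.04) and Psmb10 (-0.97) fell (limma, adjusted p = 0.029 and 0.036, range over 14 alternatives 0.029 to 0.65 and 0.036 to 0.67), with 8.88% of all genes rising and 9.28% falling. The 6 ATPases were all above 0 in this contrast as deposited, with a median of 0.52 that is near the all-gene median, and rescaled they had a median of -0.07. Among the structural groups, the values for tolerized against LPS ran from -0.21 (Psma3) to 0.71 (Psma1) in the alpha ring and from -0.44 (Psmb9) to 0.45 (Psmb1) in the beta ring. They ran from 0.26 (Psmc4) to 0.74 (Psmc1) in the ATPases and from -0.11 (Psmd8) to 0.65 (Psmd13) in the other 19S subunits. Psmf1 had the highest value of the activators and inhibitor, 0.28, and Psmg4 the lowest of the chaperones, 0.01. None of these passed.

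In single libraries, 0 of 47 members at 2 FPKM or more in either library differed by 2-fold between WT tolerized and WT LPS, where 20.8% of genes were higher and 4.54% lower. In KO, 1 of 46 was higher (Psmd5) and 0 lower, where 24.0% and 4.30% of genes were.

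Tolerized cells were also compared with naive cells. Psmb8 and Psmd11 rose, and 0 members fell, beside 7.41% and 19.7% of all genes (limma, adjusted p below 0.05). Psmb8 differed by 1.08 ± 0.30 (limma, adjusted p = 0.043) and Psmd11 by 1.20 ± 0.29 (limma, adjusted p = 0.029). After rescaling 7 members rose, Psmb8, Psmb9, Psme1, Psmd11, Psmd14, Psma5 and Psma6, and 0 fell, with 9.47% and 11.4% of all genes. The number that rose was 0 without WT naive, WT tolerized or KO tolerized, 1 without WT LPS or KO LPS, and 8 without KO naive. The median was 0.74 over inducible and 0.34 over other members, against -0.22 over all genes. Psma6 had the highest value of the alpha group, 1.12 ± 0.34, which did not pass (limma, adjusted p = 0.056), and Psma1 the lowest, 0.18. All 10 tested beta genes lay above 0, down to 0.02 for Psmb1. The ATPases ran from 0.12 (Psmc3) to 0.64 (Psmc5), and Psmd8 had the lowest value of the other 19S subunits, -0.24. Psme2 was at 0.83 and Psmf1 at -0.19. The chaperones ran from -0.55 (Psmg1) to 0.49 (Psmd5), and none of the members named in these last sentences passed.

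The knockout libraries were compared with WT across the 3 conditions. None of the 46 members passed: 0 rose and 0 fell, as in 0% of all genes in either direction (limma, adjusted p below 0.05), and an unadjusted p below 0.05 was reached by 0 members and by 707 of all genes. The inducible genes had a median of 0.41 and the others of -0.05, beside -0.06 over all genes. The highest values were 0.49 ± 0.25 for Psmb8 and 0.47 ± 0.20 for Psmd8, a lid subunit, with adjusted p of 0.79 and 0.72 (limma). The lowest was -0.33 ± 0.18 for Psmg1 (limma, adjusted p = 0.80). The alpha ring ran from -0.20 (Psma6) to 0.10 (Psma2) and the ATPases from -0.10 (Psmc2) to 0.03 (Psmc1). Psmb1 and Psmd6 had the lowest values of their groups, both -0.10. Psme1 was at 0.39, Psme3 at -0.06 and Psmd10 at 0.26.

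Between the single naive libraries, 45 of 46 members and 4666 of 10223 genes were higher in KO, with median log2 differences of 0.40 and -0.04. By the 2-fold rule 1 of these members, Psme2, was higher, where 3.95% of genes were. Psmd10, at 39.8 FPKM in WT naive and 79.4 in KO naive, and Psmb8 lay just under 2-fold, at 0.98 and 0.96. With LPS 7 of 46 members and 3382 of 8643 genes were higher in KO than in WT, with medians of -0.32 and -0.13. With 1 library each, none of these differences has a replicate check.

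The LPS response was also read within each genotype, where the difference between genotypes was not tested. In WT, 10 of 46 members were 2-fold or more higher, against 8.15% of genes, and these were all 5 inducible genes and 5 others, Psma3, Psma5, Psma6, Psmd11 and Psmd14. In KO, 0 members were 2-fold higher, against 6.96% of genes, and 3 (Psmd5, Psmg1 and Psmg3) were 2-fold lower, against 42.0%. The other members had a median of 0.45 in WT and -0.38 in KO, while all genes had -0.74 and -0.83. These KO values turned after rescaling: 13 of 46 members were 2-fold higher, all 5 inducible genes among them, and 0 lower. The rescaled median of the other members was 1.24 in WT and 0.52 in KO, with 41 of 41 and 37 of 41 above 0. In tolerized against naive cells, 7 of 47 members were 2-fold higher in WT and 1 of 46 in KO, where 7.95% and 6.32% of genes were. Across the 46 members the WT and KO differences of LPS against naive had Pearson r = 0.75 and Spearman rho = 0.79, as a description over genes that share 4 libraries, and 26 of 46 had the same sign as deposited and 42 of 46 after rescaling. The WT difference was above the KO difference for 44 of the 46, the exceptions being Psme4 and Psmd8, and for 43 after rescaling. This count uses the same naive libraries as the comparison of naive cells above, and it was not made over all genes.

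**Figure D4:**
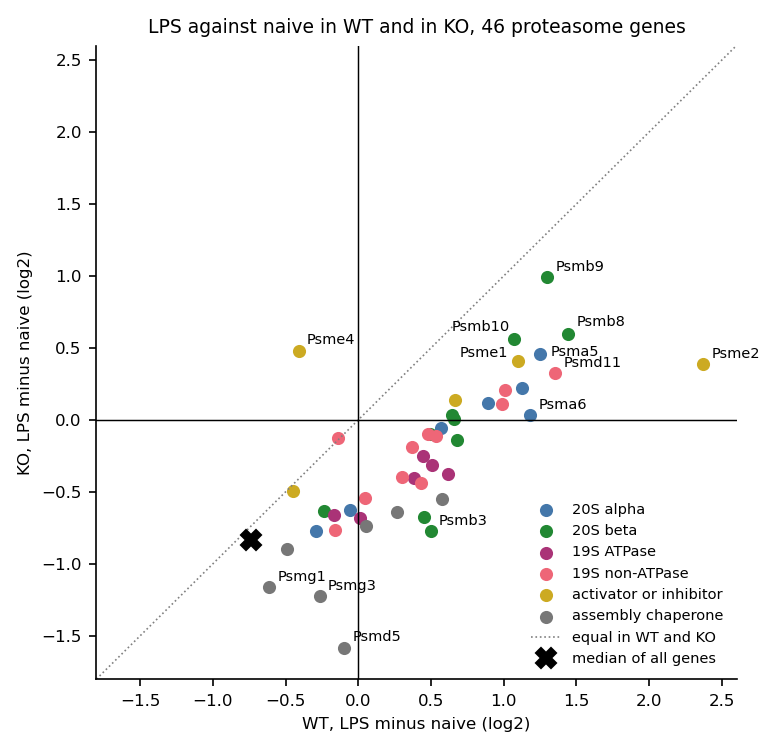
Log2 difference between the LPS and naive library in WT (horizontal) and KO (vertical) for 46 members, coloured by role, with the median of all genes as a cross. For 44 of 46 members the point lies below the dotted line of equal differences, and Psme4, at -0.41 in WT and 0.48 in KO on this deposited scale, lies far above it.

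The partners of the proteasome, a list of 17 matched genes for assembly, ubiquitin delivery and transcription, showed 2 that rose and 4 that fell with LPS (limma, adjusted p below 0.05), beside 8.74% and 54.4% of all genes. Txnl1, a thioredoxin-like protein of the regulatory particle, rose by 0.69 ± 0.25 (limma, adjusted p = 0.049). Ddi2, the protease that activates Nfe2l1, was at 17.9 and 2.06 FPKM in WT naive and LPS and at 12.3 and 4.31 in KO, and fell by 1.98 ± 0.32 (limma, adjusted p = 0.0027). Ubqln2 and Uchl5, a ubiquitin shuttle and a deubiquitinase, fell by 1.33 and 0.93, and neither passed when rescaled (limma, adjusted p = 0.063 and 0.59). In tolerized against LPS cells 2 of 17, Ddi2 (1.74) and Ubqln2 (0.61), rose, beside 36.8% of all genes. After rescaling neither passed (limma, adjusted p = 0.055 and 0.87). Nfe2l1, the factor that drives proteasome subunit genes, was at 44.7, 75.8 and 98.6 FPKM in WT and 74.2, 57.5 and 97.7 in KO and did not pass in any contrast as deposited (rescaled, it rose with LPS by 1.03), and neither did Pomp, the core maturation factor, at 178.5 to 258.3 FPKM.

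In a list of 9 genes of class I peptide supply and its regulation, 7 rose with LPS, where 8.74% of all genes did, among them Tap1 (2.76 ± 0.21), Nlrc5 (2.72 ± 0.24), Irf1 (2.47 ± 0.29) and Tap2 (1.55 ± 0.22), each with a limma adjusted p of at most 0.0016. Tap1, the peptide transporter that lies between Psmb9 and Psmb8, was at 17.4, 124.8 and 76.9 FPKM in WT and 27.2, 187.0 and 113.1 in KO. In tolerized against LPS cells Irf1 (-2.53), Nlrc5 (-1.16) and Tap1 (-0.71) fell, 3 of 9, beside 4.32% of all genes (limma, adjusted p of 0.0069, 0.015 and 0.039). In tolerized against naive cells Tap1 (2.05), Nlrc5 (1.56) and Tap2 (1.14) were among those that rose (limma, adjusted p of 0.0032 to 0.013), where 7.41% of all genes rose. Among the partners Ubqln2 fell by 0.72, and rescaled it did not pass (limma, adjusted p = 0.13). Between genotypes all 9 genes had values above 0, with a median of 0.42, and 0 passed (limma), 3 of them with an unadjusted p below 0.05.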

How the data were processed

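For each library the authors supplied a table of FPKM per gene with interval bounds and a status, per the file headers. Libraries were made from poly-A RNA with a TruSeq kit, per the labels' protocols, and bcl2fastq 1.8.4, TopHat, Cufflinks and build mm9 are named in the submitters' processing notes. Neither the annotation nor any version of TopHat or Cufflinks is given in the sources used here. Read counts were not used here, so precision is given by the deposited intervals.

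Rows not OK in 1 library or more (349), rows of symbols listed more than once (529) and small RNA rows (661) were left out of 23699. Values were analysed as log2(FPKM + 1), so differences of low genes are understated, and genes reaching 2 FPKM in 2 or more libraries were tested (10137, of which 46 of the 49 members). Tests of condition and of genotype used limma 3.58.1 (R 4.3.3), with eBayes and its trend option, two-sided, on genotype plus condition, with 2 residual and 4.20 prior degrees of freedom and Benjamini-Hochberg adjustment over all tested genes. Rescaling divided each library by the median of its ratios to each gene's geometric mean, over tested genes detected in every library. The factors ran from 0.688 (KO LPS) to 1.31 (WT naive). Single libraries were compared by a 2-fold rule among genes reaching 2 FPKM in 1 of the pair. The fit was tested on simulated data. Transcripts were searched for copies with BLAST 2.17.0 (95% identity over 300 aligned bases or more). Locus starts were converted to count from 1, since 560 of 571 miRNA lengths then equalled the reference.

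The members and lists were chosen with earlier results of these data known. The genes named are the inducible genes, Psmb5 to Psmb7, the other activators, the inhibitor, Psma8, Psmb11 and Psmc3ip, the highest and lowest member of each structural group in each contrast, and up to 4 genes of each of the lists of partners and of class I peptide supply, always with Pomp, Nfe2l1, Tap1, Tap2 and Irf1. Other members were named after their values were seen. Some list genes are not reported here by name. Rescaling on genes from 10 FPKM was an alternative chosen after seeing the data.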

Additional observations from a re-analysis of the deposited data

Results flagged for a closer look

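In 10 comparisons of single libraries WT and KO moved in opposite directions, each past a minimum fold, among 46 members and 3 contrasts. The difference between genotypes was not tested, since each group has 1 library. The 10 comparisons were counted on the deposited scale. The same count was not made over all genes, so whether 10 is more or fewer than among other genes was not tested. After rescaling to a common median 2 of the 10 remained opposite and none of the 7 for LPS minus naive did. For LPS minus naive the WT minus KO difference was 0.99 for Psmc5, 0.78 for Psmc6, 0.87 for Psmd3, 1.27 for Psmb3, 1.13 for Psmb5 and 1.12 for Psmd10, each higher in WT and lower in KO. Psme4 had -0.89, lower in WT and higher in KO. For tolerized minus LPS Psme1 had -0.68, at -0.36 in WT and 0.32 in KO (rescaled, -0.91 and -0.33). For tolerized minus naive Psmb3 had 1.08 and Psmb5 1.00, and these 2 remained higher in WT and lower in KO, at 0.94 and -0.14 and at 0.83 and -0.17.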

How the results depend on the processing

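Counts of members depended on the scaling and on single libraries, and the cause was not tested. For LPS against naive, the number that rose was 28 rescaled to a common median, 14 rescaled on genes from 10 FPKM and 2 with no filter on low values, and 1 to 11 with a library left out. The number that fell was 0 under both rescalings and 0 to 4 with a library left out. For tolerized against LPS, the number that rose was 0 under both rescalings and with no filter, 2 without trend, 3 without the genotype term and 0 to 5 with a library left out, and 2 fell when rescaled to a common median. For tolerized against naive it was 7 under both rescalings, 0 with no filter, 1 without the genotype term and 0 to 8 with a library left out. KO against WT gave 0 in every alternative.

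By the 2-fold rule after rescaling, the counts of higher members were 31 in WT LPS and 13 in KO LPS against naive, 15 in WT and 4 in KO tolerized against naive, 2 in KO naive against WT naive and 1 in KO LPS against WT LPS. Lower members were 3 in WT tolerized against LPS and 0 in KO LPS against naive. The inducible genes against the others moved, for LPS minus naive in WT, by 0.55 with medians and 0.89 against the 20S core, and in KO by 0.80 against the core. It was -0.66 for KO tolerized minus LPS with medians. For tolerized minus naive it was -0.22 with medians and 0.33 against the core in WT, and 0.30 with medians in KO.

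Rescaling to a common median changed the sign of 18 of 46 members for LPS against naive, all from below to above 0, of 27 for tolerized against LPS, all from above to below 0, and of 5 for tolerized against naive. Of the members called, Psmd9 (0.056) and Psmg3 (0.050) were among the 18. For tolerized against LPS, Psmb8 was -0.54 and -0.19 under the rescalings and ranged from -0.22 to 0.35 with a library left out, Psme1 from -0.36 to 0.33 and Psme2 from -1.20 to 0.10. For tolerized against naive Psme2 ranged from -0.010 to 1.66. No paired analysis was possible because each group holds 1 library, so replicate numbers add nothing to genotype, which is a term of the fit. Precision of low members is limited by counting error, and Psma8 and Psmc3ip were left out by the filter on FPKM.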
